A study of Mus musculus with 43 samples.

Results

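The collagen chain genes are the mouse genes whose symbols follow the pattern Col, a type number, a and a chain number. All rows with such a symbol were taken, which gave 43 genes of the 23256 in the table by symbol alone. The table covers 43 libraries of back skin, taken at 10 to 13 weeks of age from females of 3 strains under 3 ultraviolet B (UVB) regimens. The strains are NZM (NZM2328, a lupus-prone strain), iNZM and WT. What iNZM and WT stand for is not spelled out in the labels, and the background of WT is not named. In the field, iNZM denotes NZM2328 animals that lack the receptor for type I interferon. Acute UVB was 300 mJ/cm2 given once, chronic UVB was 100 mJ/cm2 daily on 5 days, and the third regimen was no UVB. Exposed skin was biopsied 24 hours after the last dose. Each of the 9 groups held 5 libraries, except unexposed iNZM and unexposed WT with 4 each. The labels do not say that each library came from its own mouse, so p-values measure the spread between these samples, which may be technical in part.

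Collagens are built from 3 chains wound into a triple helix, and each gene encodes 1 chain. Fibroblasts make the fibrillar collagens (types I, III and V) that give the dermis its strength, while sheets of type IV collagen, filaments of type VI and the linkers of types VII and XVII tie the epidermis to the dermis. The chains are modified and trimmed by dedicated enzymes, are broken down by matrix metalloproteinases, and are made in larger amounts under transforming growth factor beta.

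Recovered reads per library ranged from 18493566 to 37756660 with a median of 24442363, and the collagen genes took between 0.122% and 1.34% of them. Ifnar1, a receptor chain for type I interferon, lay between 304 and 579 normalised reads in the 14 iNZM libraries, between 716 and 1148 in the 15 NZM libraries and between 758 and 1378 in the 14 WT libraries. A score over 28 hair follicle genes separated 9 libraries (scores of 5.81 and above) from the other 34 (2.64 and below). The 9, the hair-rich libraries, were NZM acute library 5, iNZM acute libraries 6 and 49, NZM chronic libraries 17, 55 and 56, and iNZM chronic libraries 22, 24 and 25. The summed reads of those hair genes ran from 1202 to 688739 in NZM chronic skin and from 1390 to 5931 in WT chronic skin, and 21 of the 28 genes were at 0 in at least 1 library. For most chains described and for the counts of the lists, values without these libraries are given beside the results of the groups that hold them. For single genes of the lists such values are given only where stated. In bulk skin, fewer cells of a type and less RNA per cell cannot be told apart.

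A normalised read is a read count divided by the size factor of its library. Expressed per kb of transcript, so that genes can be compared, the mean level over the 9 groups was highest for Col17a1 at 4670 normalised reads per kb, followed by Col3a1 at 4496, Col1a2 at 2761 and Col1a1 at 2177. The order of the first 2 differed between groups: Col17a1 was at 9146 per kb and Col3a1 at 1370 in unexposed NZM skin, and at 5856 and 9541 in unexposed WT skin. The Col17a1 mean was also the higher one in unexposed iNZM and in iNZM chronic skin, and the Col3a1 mean in the other groups. Col18a1, Col4a1, Col6a1, Col6a2 and Col4a2 followed between 533 and 793 per kb. At the other end stood Col10a1, a cartilage growth plate chain, at 0.373 per kb and at 0 in 25 of 43 libraries. Col10a1 was the 1 member that failed the filter on low values (at least 10 normalised reads in at least 4 libraries), so 42 members were tested among 19170 genes. Col9a1 had no row under that symbol and was not analysed here.

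How UVB and strain moved these genes was read from 1 limma fit on log2(normalised reads + 1), in which differences understate the change of low genes, and a gene was called at a Benjamini-Hochberg adjusted p below 0.05, two-sided. After acute UVB, 9 members rose and 5 fell in NZM skin, against 10.6% and 10.7% of all genes called. In iNZM skin 5 rose and 3 fell after acute UVB (all genes 12.8% and 12.4%), and in WT skin 6 rose and 5 fell (10.4% and 11.3%). After chronic UVB, 12 members rose and 5 fell in NZM skin (9.20% and 9.78%), 2 rose and 10 fell in iNZM skin (13.1% and 15.7%), and 5 rose and 9 fell in WT skin (18.4% and 16.8%). Without the hair-rich libraries acute UVB raised 10 and lowered 5 in NZM and raised 5 and lowered 4 in iNZM skin. After chronic UVB without them, 2 rose and 4 fell in NZM and 2 rose and 9 fell in iNZM skin. That fit keeps 2 libraries in each of the NZM chronic and iNZM chronic groups. Shares of all genes called in that fit are not given here, so the shares above are no background for its counts. The median log2 difference of the 42 members after chronic UVB was 0.68 in NZM, -0.50 in iNZM and -0.77 in WT, beside 0.04, 0.02 and 0.03 over all genes. Within each strain the acute and chronic comparisons share their unexposed libraries. In the fit on all libraries Col2a1 and Col6a4 rose in each of these UVB comparisons. In iNZM chronic skin they were the 2 that rose. Both passed the filter on low values through exposed libraries alone. The counts of risers here and by class below therefore hold members so chosen.

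**Figure D1:**
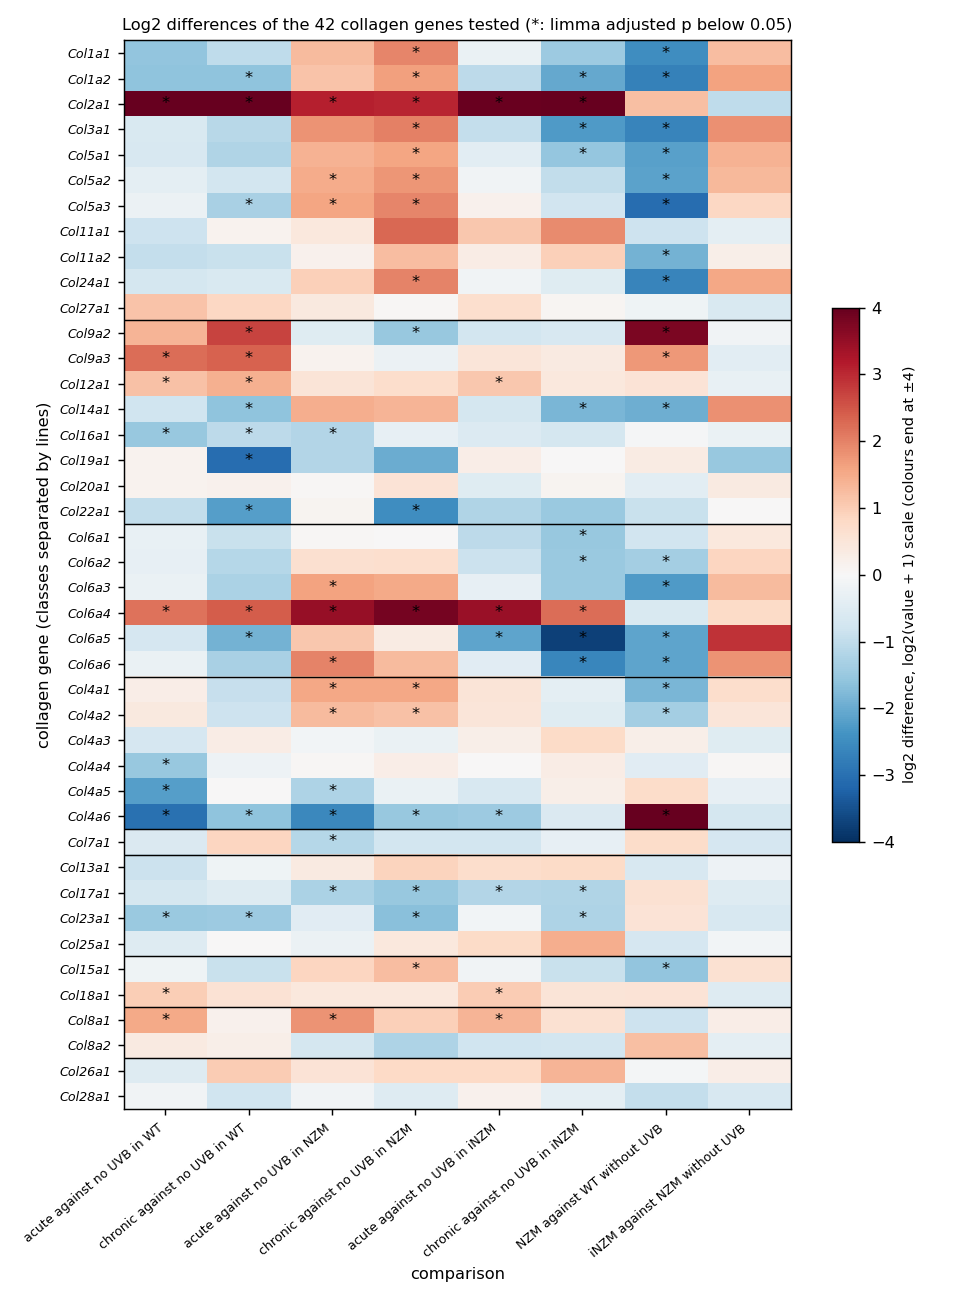
Log2 differences of the 42 collagen genes tested (vertical axis, classes separated by lines) in 8 comparisons (horizontal axis), with red for higher and blue for lower in the first-named group and an asterisk for a limma adjusted p below 0.05. Col2a1 and Col6a4 carry asterisks in all 6 UVB columns. Most of the fibrillar chains at the top are red in chronic NZM skin and blue in unexposed NZM against WT skin, where Col2a1 is not blue.

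The fibrillar chains form the rope-like fibrils of the dermis. Without UVB they were lower in NZM than in WT skin: of the 42 members 16 were lower and 3 higher (7.49% and 7.47% of all genes), and 8 of the 11 fibrillar chains were among the lower ones. The median of the 11 was -2.16 on the log2 scale, beside 0.01 over all genes. Without WT library 45 alone, the members called in this comparison went from 19 to 10. Col1a1 (chr11:94936224-94953042, plus strand) and Col1a2 (chr6:4504814-4541544, plus strand), the chains of type I collagen, fell short by 2.49 and 2.71, and Col3a1 (chr1:45311538-45349706, plus strand), the type III chain, by 2.63.

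Col1a1 was 3075, 7739, 11424, 2345 and 2858 normalised reads in the 5 unexposed NZM libraries. It was 11817, 19370, 41577 and 42309 in the 4 unexposed WT libraries. The NZM values all lay under the WT values, and the WT libraries fell into a lower and a higher pair. The difference was -2.49 ± 0.66 (SE) in log2, with a limma adjusted p of 0.00761.

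Col5a3 (chr9:20770050-20815067, minus strand), a minor type V chain that takes part in fibril assembly, differed most among the fibrillar chains, by -3.06 ± 0.51 (SE; limma adjusted p = 3.7e-05). Its values were 151, 278, 420, 122 and 173 in unexposed NZM skin and 1460, 773, 2422 and 3200 in unexposed WT skin, with no overlap. Col1a2 (adjusted p = 0.00238) and Col5a2 (-2.15, adjusted p = 0.00316), another type V chain, kept their limma call without any single library. Col3a1 (adjusted p = 0.0103 by limma) lost it without WT library 45, at 0.072, and Col5a1 (-2.16, adjusted p = 0.00701) likewise at 0.056.

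Unexposed iNZM skin stood between the other strains for type I collagen, with a mean Col1a1 of 10805 ± 2757 (SD, n = 4) beside 5488 ± 3966 (SD, n = 5) in NZM and 28768 ± 15525 (SD, n = 4) in WT. Between unexposed iNZM and NZM skin limma called no member (0.00% of all genes higher, 0.0313% lower), with 9 of 42 at an unadjusted p below 0.05. edgeR called none there and DESeq2 called 1. No share of all genes stands beside the unadjusted, edgeR and DESeq2 counts, so they are not read as a result about the members.

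Chronic UVB raised 8 of the 11 fibrillar chains in NZM skin, Col2a1 among them, with a median log2 difference of 1.94. Col1a1 was 10269, 20056, 13660, 27680 and 20600 in the 5 NZM chronic libraries, against 2345 to 11424 without UVB. Only library 54 fell within the unexposed range. The differences were 1.96 ± 0.62 (SE; limma adjusted p = 0.0257) for Col1a1, 2.02 ± 0.68 (0.0344) for Col3a1 and 1.94 ± 0.48 (0.00566) for Col5a3.

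The 3 libraries of high hair follicle score, 17, 55 and 56, were among the 5 NZM chronic libraries. Without the 9 such libraries, which leaves 2 in NZM chronic skin, 2 members rose and 4 fell in this comparison, and Col1a1 was 1.40 higher with a limma adjusted p of 0.336. Col3a1 was then 1.91 higher (adjusted p = 0.223, limma) and Col5a3 1.74 higher (0.0944). In the 2 remaining libraries, 54 and 18, Col3a1 was 22589 and 27097, both above the highest unexposed NZM value of 15325. The Col1a1 call was also lost without any 1 of NZM chronic libraries 17, 55 and 56 or unexposed libraries 31, 34 and 35, at an adjusted p of up to 0.0718, and the Col3a1 call without 55, 56, 31, 34 or 35, at up to 0.0925. The Col5a3 call held without each single library. Leaving out library 55 alone reduced the calls among the 42 members from 17 to 7.

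**Figure D2:**
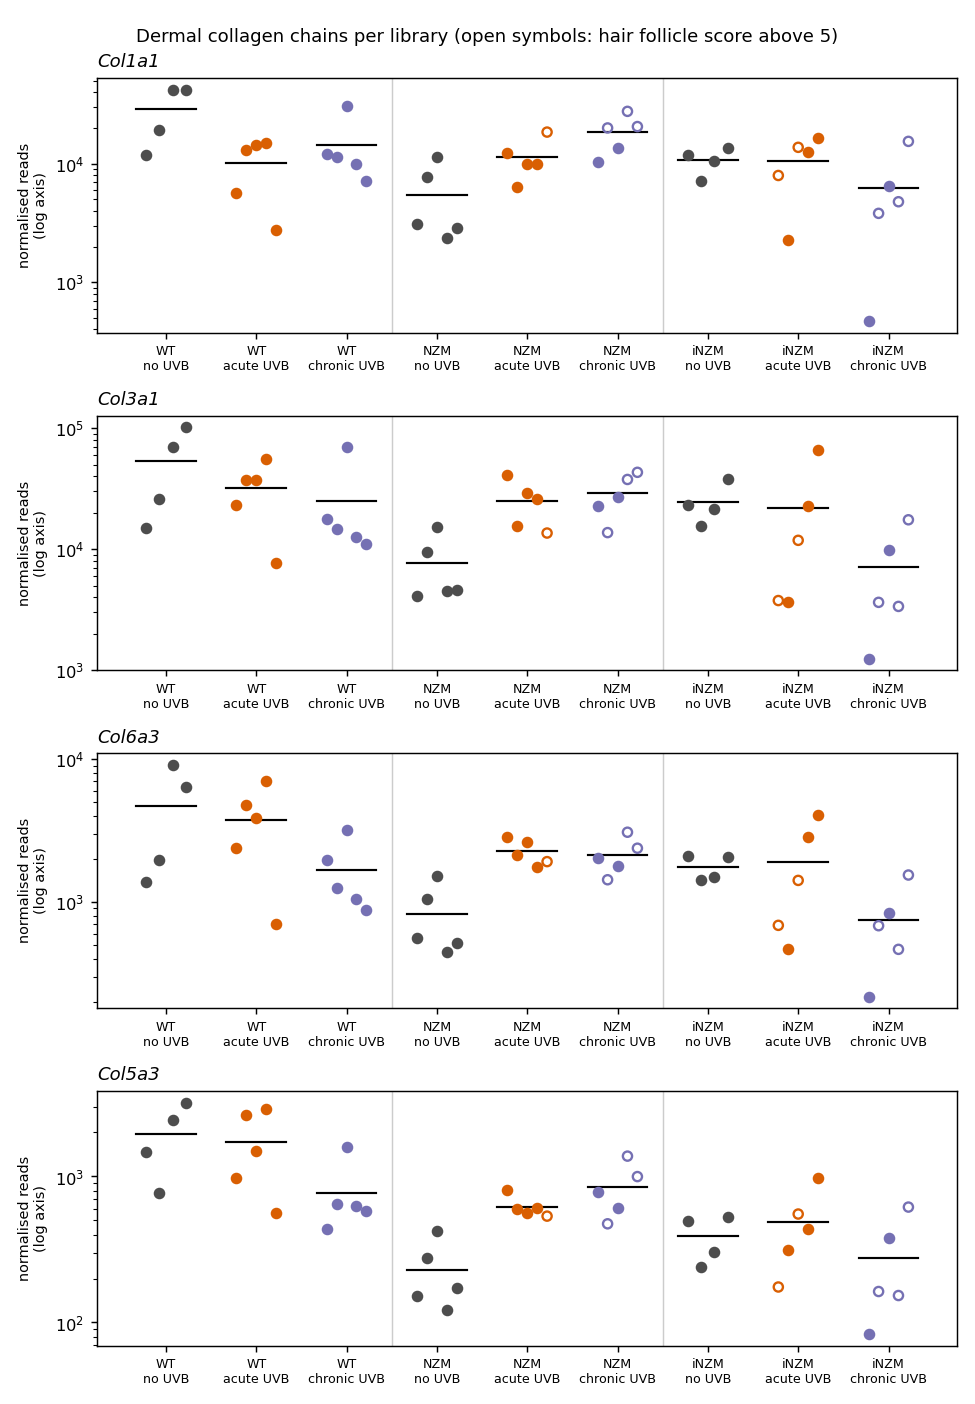
Normalised reads of Col1a1, Col3a1, Col6a3 and Col5a3 (vertical axes, log scale) in the 43 libraries by strain and regimen, with a point per library, a bar at the group mean and open symbols for the 9 libraries of high hair follicle score. Unexposed NZM libraries sit low, with Col1a1 between 2345 and 11424, and the unexposed WT libraries spread from 11817 to 42309.

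After chronic UVB 3 fibrillar chains fell and 1 rose in iNZM skin, and 2 fell and 1 rose in WT skin, with median log2 differences of -0.77 and -0.89. The 1 that rose was Col2a1 in both strains. Col1a2 fell by 2.06 ± 0.63 (SE; limma adjusted p = 0.0156) in iNZM skin and Col3a1 by 2.27 ± 0.72 (0.0188). Col3a1 was 1241, 3632, 9878, 3361 and 17467 in the iNZM chronic libraries and 23012, 15626, 21388 and 38234 in the unexposed ones. Library 25 overlapped the unexposed range. The Col3a1 call was lost without chronic library 57 or unexposed library 40 (adjusted p up to 0.0642), and in a fit on the compared groups alone, with a hair follicle covariate and by edgeR (up to 0.116). Without the 9 hair-rich libraries the fall of Col3a1 was 2.73 (limma adjusted p = 0.0345) and Col1a2 fell by 2.81 (0.0165).

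In WT skin Col1a2 fell by 1.61 ± 0.63 (SE; limma adjusted p = 0.0437) after chronic UVB and Col5a3 by 1.31 ± 0.51 (0.0442). Col1a1 was 12169, 11443, 30689, 9917 and 7171 in the WT chronic libraries, with library 28 well above the rest, and its difference of -1.01 missed the threshold. The Col1a2 call was lost without any one of 6 libraries, WT chronic 58, 27, 29 or 59 or unexposed 44 or 45, at an adjusted p of up to 0.163, and the Col5a3 call was lost in 7 of 9 such fits, at up to 0.174.

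The difference between these responses was itself tested. The chronic response was higher in NZM than in WT skin for 11 of 42 members and lower for 2, beside 3.50% and 4.08% of all genes, and 6 of the 11 fibrillar chains were among the 11. Col5a3 differed by 3.24 ± 0.70 (SE; limma adjusted p = 0.00531), Col1a2 by 3.26 ± 0.87 (0.0187) and Col1a1 by 2.97 ± 0.90 (0.0372). The Col5a3 value kept its call without each single library and without the 9 hair-rich libraries (3.05, adjusted p = 0.0181 by limma). The Col1a1 value did not (2.41, adjusted p = 0.121), and without unexposed WT library 45 only 3 members were called in all. Unexposed NZM and WT skin already differed in these genes, and the response contrast uses those same libraries.

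For the chronic response of iNZM against NZM, limma called no member and no gene at all (0.00% in each direction), with 16 of 42 members at an unadjusted p below 0.05. edgeR called 0 members and DESeq2 9, all of them lower in iNZM. The median of the 11 fibrillar chains in this contrast was -2.71, beside 0.02 over all genes. For the acute response, limma called 0 members in NZM against WT (0.0522% of all genes higher, 0.0626% lower, 13 members at an unadjusted p below 0.05, edgeR 0, DESeq2 1). It called 0 in iNZM against NZM as well (0.00522% and 0.00%, 9 members at an unadjusted p below 0.05, edgeR 0, DESeq2 0). In these contrasts the unadjusted, edgeR and DESeq2 counts have no share of all genes beside them. They are not read as results about the members.

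After acute UVB the fibrillar chains of NZM skin were higher by a median of 1.26, and 3 of 11 rose, Col2a1 among them. Col5a3 was 802, 603, 560, 609 and 535 in the NZM acute libraries, all above the unexposed maximum of 420, a rise of 1.57 ± 0.48 (SE; limma adjusted p = 0.0165, and 0.0518 without unexposed library 34). Col5a2 rose by 1.49 (adjusted p = 0.0238, limma), a call lost without acute library 1 or unexposed library 31, 34 or 35, at up to 0.0716. The rises of Col5a3 and Col5a2 without the hair-rich libraries were both 1.62 (limma adjusted p = 0.0133 and 0.0238). In iNZM and WT skin the 1 fibrillar chain that rose after acute UVB was Col2a1.

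Col2a1 (chr15:97975602-98004695, minus strand) encodes the main fibrillar chain of cartilage, and its levels in skin were low. It falls outside the rule for named genes, which asks for a group mean of at least 100, and was singled out after its values were seen. Without UVB it was 4.67, 5.02, 0, 7.33 and 2.91 normalised reads in NZM, 0, 4.86, 1.65 and 0 in iNZM and 0, 0, 4.58 and 0.795 in WT skin. After acute UVB it was 12.2, 64.1, 32.2, 44.7 and 38.3 in NZM, 28.9, 26.6, 30.3, 33.0 and 29.4 in iNZM and 50.2, 52.9, 31.1, 29.5 and 28.2 in WT skin.

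Chronic UVB gave Col2a1 values of 32.2, 51.0, 33.4, 25.4 and 26.3 in NZM, 41.6, 36.0, 45.5, 29.1 and 27.9 in iNZM and 89.8, 23.5, 44.7, 71.7 and 25.7 in WT skin. All 30 exposed libraries (12.2 to 89.8) lay above all 13 unexposed ones (0 to 7.33). The acute rises were 3.10 ± 0.51 (SE) in NZM, 3.94 ± 0.54 in iNZM and 4.42 ± 0.54 in WT, with limma adjusted p of 2.61e-05, 1.68e-06 and 1.3e-07. The chronic rises were 3.05 ± 0.51, 4.2 ± 0.54 and 4.68 ± 0.54 (limma adjusted p = 8.26e-05, 3.93e-06 and 3.73e-08). Each of the 6 calls held without each single library, without the hair-rich libraries and by edgeR and DESeq2. No unexposed library exceeded 7.33 reads, so Col2a1 passed the filter on low values through exposed libraries alone. Its adjusted p-values, and the calls that held in these other fits, describe a gene so chosen.

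**Figure D3:**
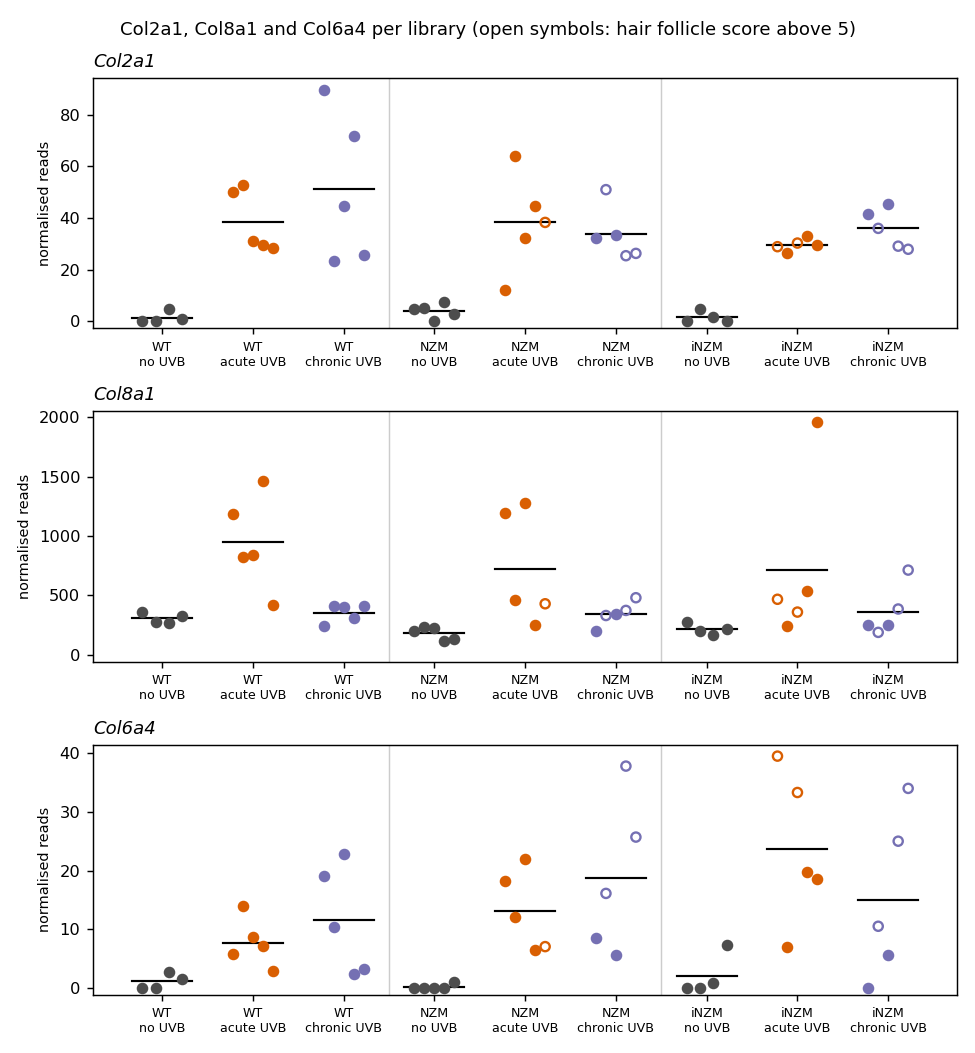
Normalised reads of Col2a1, Col8a1 and Col6a4 (vertical axes, linear scale) in the 43 libraries by strain and regimen, with a point per library, a bar at the group mean and open symbols for the 9 libraries of high hair follicle score. Every exposed library exceeds every unexposed one for Col2a1, while Col8a1 is raised after acute UVB and Col6a4 is at most 39.5 reads.

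Col11a1 (chr3:114030540-114220718, plus strand), a minor fibrillar chain best known from cartilage, was high in the libraries of high hair follicle score. Its 9 values there lay between 138 and 524 normalised reads and the other 34 between 0.984 and 84.8. All 9 are exposed NZM or iNZM libraries, and the 21 other exposed libraries (0.984 to 84.8) overlapped the 13 unexposed ones (11.5 to 77.9). None of the 6 UVB comparisons called it. Col27a1, a fibrillar chain called in no comparison, ran from 38.3 to 1171 over the 43 libraries.

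Promoter sequences of 34 of the 43 members were found in the RefSeq table of build GRCm38.p6, each 250 bases before to 50 after the gene start that RefSeq gives. For Col1a2 that start lies inside the GENCODE gene, so its window does too. They were searched on both strands for the CCAAT box (CCAAT), the TATA box (TATAAA), the GC box (GGGCGG) and an AP-1 site (TGACTCA). The GC box was found in 22 of the 34 members and in 35.7% of the 32851 promoters of the table. The CCAAT box was found in 12 members (37.4% of all promoters), the TATA box in 5 (13.6%) and the AP-1 site in 1, Col6a1 (5.20%). A match is a run of letters and not a shown binding site. Col1a2 (chr6:4505368-4505667, plus strand) and Col3a1 (chr1:45311288-45311587, plus strand) are printed because these chains moved together across strains, with motif matches on either strand in capitals. The Col1a2 window holds the CCAAT and GC boxes, and the Col3a1 window holds the TATA box alone of the 4.
Col1a2: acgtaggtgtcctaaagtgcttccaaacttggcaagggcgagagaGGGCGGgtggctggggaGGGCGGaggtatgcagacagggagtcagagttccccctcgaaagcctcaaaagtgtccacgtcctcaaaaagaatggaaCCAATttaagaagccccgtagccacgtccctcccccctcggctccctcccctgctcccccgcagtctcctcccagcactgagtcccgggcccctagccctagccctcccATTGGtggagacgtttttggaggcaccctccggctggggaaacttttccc
Col3a1: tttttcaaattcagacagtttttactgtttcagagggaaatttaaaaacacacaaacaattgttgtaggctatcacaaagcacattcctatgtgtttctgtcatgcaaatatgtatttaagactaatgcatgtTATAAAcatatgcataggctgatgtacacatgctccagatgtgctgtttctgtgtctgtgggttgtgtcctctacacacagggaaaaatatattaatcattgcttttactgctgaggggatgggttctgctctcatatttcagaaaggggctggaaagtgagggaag

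The fibril-associated chains sit on the surface of fibrils. Among the 8 tested, none rose and 1 fell after acute UVB in NZM, 1 rose in iNZM, and 2 rose and 1 fell in WT. Chronic UVB raised none and lowered 2 in NZM, lowered 1 in iNZM, and raised 3 and lowered 4 in WT skin. Col12a1 (chr9:79598991-79718831, minus strand), a type XII chain that coats type I fibrils, was 918, 1006, 709 and 662 in unexposed iNZM skin and 1394, 1150, 1707, 2552 and 2097 after acute UVB. The groups did not overlap and the rise was 1.07 ± 0.36 (SE; limma adjusted p = 0.0258), lost without acute library 9 or unexposed library 39 or 40, at up to 0.0791, and 1.17 with an adjusted p of 0.0424 without the hair-rich libraries.

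In WT skin Col12a1 rose by 1.16 after acute UVB (limma adjusted p = 0.0169, 0.146 in a fit on the compared groups alone and up to 0.139 without acute library 13 or 52 or unexposed library 41 or 43) and by 1.42 ± 0.36 after chronic UVB (adjusted p = 0.00258 by limma). The WT values were 305, 549, 1612 and 817 without UVB and 2147, 1455, 1805, 2063 and 1765 after chronic UVB. Unexposed library 44 was the 1 that reached into the exposed range. Col14a1, which spaces fibrils, fell after chronic UVB by 1.82 in iNZM (limma adjusted p = 0.0286, lost without 57, 38 or 40 at up to 0.0957, and 0.0226 without the hair-rich libraries) and by 1.60 in WT skin (0.0452), and the WT call was lost in 6 of 9 fits that left out 1 library.

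Col16a1 (chr4:130047840-130099283, plus strand), a fibril-associated chain found near the dermal-epidermal junction, fell by 1.16 ± 0.35 (SE) in NZM and 1.53 ± 0.37 in WT skin after acute UVB and by 1.05 ± 0.37 in WT skin after chronic UVB (limma adjusted p = 0.014, 0.00206 and 0.0244). WT values were 2746, 3761, 4245 and 4032 without UVB, 1056, 1319, 1495, 1788 and 852 after acute UVB, and 1839, 1596, 1894, 1701 and 1761 after chronic UVB. All exposed WT libraries lay under all unexposed ones, though without unexposed library 44 or 45 the chronic call was lost, at up to 0.0612.

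The hair-rich libraries were the high ones for Col16a1 within each group that held any. In NZM chronic skin the 3 of high score lay between 2699 and 5152 and the other 2 between 1675 and 1982. Without the 9 such libraries Col16a1 fell in all 6 UVB comparisons, by 1.35 and 0.94 in NZM, 1.19 and 1.55 in iNZM and 1.53 and 1.05 in WT skin (acute then chronic, limma adjusted p at most 0.0103). The 21 exposed libraries left had 852 to 1982 normalised reads and the 13 unexposed ones 2638 to 4642. This alternative was chosen after the scores were seen.

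Col9a2 (chr4:121039385-121055322, plus strand) and Col9a3 (chr2:180597790-180622189, plus strand) encode chains of type IX collagen, which decorates cartilage fibrils. Col9a2 is named after its values were seen, since its means lie under 100. Without UVB it was 24.5, 33.1, 32.4, 48.9 and 34.9 in NZM, 70.8, 24.3, 33.0 and 15.6 in iNZM and 1.16, 9.89, 0 and 0.795 in WT skin. The WT libraries were all under the NZM and iNZM libraries, and the NZM against WT difference was 3.78 ± 0.52 (SE; limma adjusted p = 1.16e-06).

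After chronic UVB Col9a2 was 15.0, 14.7, 8.71, 18.2 and 25.7 in WT and 24.6, 8.95, 13.4, 10.8 and 5.14 in NZM skin, so that the strain groups now overlapped. It rose by 2.7 ± 0.52 (SE) in WT (limma adjusted p = 0.000136) and fell by 1.52 ± 0.49 in NZM skin (0.0276, but 0.474 without the hair-rich libraries and up to 0.0983 without chronic library 17, 55 or 56 or unexposed library 34). The responses differed by -4.22 ± 0.71 (NZM minus WT, limma adjusted p = 0.000518), a call that held without each single library and without the hair-rich ones (-3.57, adjusted p = 0.0106).

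Col9a3 was 19.7, 32.6, 23.8 and 31.8 in unexposed WT skin, under all NZM values of 43.9 to 180, a difference of 1.72 ± 0.43 (SE; limma adjusted p = 0.00441). In WT skin it rose by 2.23 after acute UVB (adjusted p = 0.000156, limma) and by 2.35 after chronic UVB (6.59e-05), when it was 147, 144, 95.8, 129 and 197. Its chronic response differed by -2.58 ± 0.59 between NZM and WT (adjusted p = 0.00742, limma). The exons of Col9a3 share 234 bases (6.07%) with Tcfl5 on the opposite strand, and whether the counting used strand is not given in the sources used here.

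Col22a1, a chain of muscle-tendon junctions that is also named after its values were seen, fell after chronic UVB by 2.47 in NZM (limma adjusted p = 0.0263) and by 2.21 in WT skin (0.0368). The NZM call was lost without the hair-rich libraries (-1.45, adjusted p = 0.301 by limma) and in 6 of 10 fits that left out 1 library, and the WT call in 4 of 9 (up to 0.128). Its WT values were 102, 35.6, 53.1 and 32.6 without UVB and 24.9, 1.47, 10.9, 6.83 and 26.8 after chronic UVB. Of 15 skeletal muscle markers, 13 fell in NZM, 11 in iNZM and 11 in WT skin after chronic UVB (9.78%, 15.7% and 16.8% of all genes). After acute UVB none fell in any strain. None fell without the hair-rich libraries in NZM or iNZM skin after chronic UVB. Their summed reads were 284691 to 363207 in WT chronic and 955080 to 2398026 in unexposed WT libraries, with Tnnc2 the 1 marker at 0 in any library. The part of muscle content in the Col22a1 result was not tested. Col19a1 was at 0 in all 5 WT chronic libraries, which allows up to 3 reads in each, and had a mean of 8.16 in unexposed WT skin. It was among the 4 fibril-associated chains called lower there after chronic UVB. The size and adjusted p of that fall are not given here.

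Type VI collagen forms beaded filaments around cells. Without UVB 4 of its 6 chains were lower in NZM than in WT skin, at a median of -1.74. Col6a3 (chr1:90765923-90843971, minus strand) was 559, 1045, 1517, 448 and 518 in unexposed NZM and 1388, 1960, 9087 and 6391 in unexposed WT skin, a difference of -2.28 ± 0.59 (SE; limma adjusted p = 0.00653). Only NZM library 33 reached into the WT range, and without WT library 44 the adjusted p was 0.0501.

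Col6a3 rose in NZM skin after acute UVB, to 2861, 2129, 2610, 1765 and 1915, by 1.60 ± 0.56 (SE; limma adjusted p = 0.035). All 5 values lay above the unexposed ones, though the call was lost in 6 of 10 fits without a single library, with an adjusted p of up to 0.0862. Col6a6 rose there by 1.97 (limma adjusted p = 0.0357), also lost in 6 of 10 such fits. Leaving out the hair-rich libraries gave rises of 1.66 for Col6a3 (limma adjusted p = 0.0433) and 2.21 for Col6a6 (0.0169).

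In iNZM skin chronic UVB lowered 4 of the 6 type VI chains. Col6a5 (chr9:105856078-105960643, minus strand) was 504, 128, 221 and 177 without UVB and 22.3, 10.5, 21.1, 9.36 and 20.9 after chronic UVB. No library overlapped, and the fall of 3.75 ± 0.68 (SE; limma adjusted p = 0.000228) was called in every fit tried. Col6a6 fell by 2.60 (limma adjusted p = 0.00906), Col6a1 by 1.52 (0.0138) and Col6a2 by 1.5 (0.0188). None of these 3 was called without the hair-rich libraries (limma adjusted p of 0.0961, 0.0715 and 0.0987), a fit that keeps 2 iNZM chronic libraries. In those 2, libraries 57 and 23, all 3 chains lay under every unexposed iNZM library, with Col6a1 at 1065 and 1879 against 2838 to 4175. In WT skin Col6a5 fell by 1.90 after chronic UVB (adjusted p = 0.0289 by limma, and up to 0.128 without chronic library 27 or unexposed library 44 or 45). After acute UVB it fell in iNZM skin by 2.10 (limma adjusted p = 0.0215), but not by the test without the hair-rich libraries (-1.09, 0.303).

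Col6a4 (chr9:105989454-106096783, minus strand) encodes another type VI chain and rose in all 6 UVB comparisons, by 2.16 to 3.82 in log2. It is named after its values were seen since it reached no more than 39.5 normalised reads. No unexposed library exceeded 7.3 reads, so Col6a4 passed the filter on low values through exposed libraries alone. Its adjusted p-values describe a gene so chosen. In NZM skin it was 0, 0, 0, 0 and 0.969 without UVB, 18.2, 12, 22.0, 6.38 and 7.03 after acute UVB and 8.52, 16.1, 5.57, 37.8 and 25.7 after chronic UVB. The NZM calls (limma adjusted p = 0.000483 and 0.000353) held in every fit tried. The iNZM chronic call (0.027) was lost in 6 of 9 fits without a single library and without the hair-rich libraries, at an adjusted p of up to 0.799, and the WT acute call (0.0366) was lost in 6 of 9 and with edgeR. Its exons share 162 and 127 bases with genes annotated on the opposite strand.

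Type IV collagen is the network of basement membranes, and its 6 genes lie as 3 head-to-head pairs. Col4a1 (chr8:11198423-11312826, minus strand) and Col4a2 (chr8:11312805-11449287, plus strand) overlap by 22 bases at their starts, Col4a4 and Col4a3 lie 71 bases apart, and Col4a6 and Col4a5 lie 1308 bases apart on the X chromosome. The promoter windows of Col4a1 (chr8:11312777-11313076, minus strand) and Col4a2 (chr8:11312555-11312854, plus strand) share 78 bases and are printed because the chains moved together. Capitals mark CCAAT box and GC box matches on either strand, and neither window holds the TATA box.
Col4a1: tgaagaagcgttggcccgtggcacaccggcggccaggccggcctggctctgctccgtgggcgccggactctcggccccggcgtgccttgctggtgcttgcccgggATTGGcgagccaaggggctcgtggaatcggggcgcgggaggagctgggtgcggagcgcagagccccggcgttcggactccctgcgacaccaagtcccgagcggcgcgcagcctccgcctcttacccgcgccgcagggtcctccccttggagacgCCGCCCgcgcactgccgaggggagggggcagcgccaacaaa
Col4a2: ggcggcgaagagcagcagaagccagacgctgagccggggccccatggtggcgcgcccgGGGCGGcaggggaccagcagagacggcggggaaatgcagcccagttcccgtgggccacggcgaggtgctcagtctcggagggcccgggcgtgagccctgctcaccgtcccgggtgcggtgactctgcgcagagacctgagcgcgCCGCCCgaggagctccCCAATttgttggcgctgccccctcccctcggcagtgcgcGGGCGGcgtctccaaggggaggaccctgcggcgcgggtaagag

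Col4a1 ranged from 754 to 17374 normalised reads over the 43 libraries, while its ratio to Col4a2 per kb stayed between 0.945 and 1.96. In NZM skin Col4a1 was 1851, 2738, 3121, 1169 and 1477 without UVB, 7389, 4904, 6534, 4157 and 5892 after acute UVB and 4646, 4283, 4454, 9296 and 7126 after chronic UVB. All exposed values exceeded all unexposed ones. It rose by 1.55 ± 0.45 (SE) after each regimen (limma adjusted p = 0.0119 acute and 0.0169 chronic), and Col4a2 rose by 1.25 and 1.17 (0.0233 and 0.0391).

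The acute Col4a1 call held without each single library, and the chronic one was lost without library 55 (0.057) and without the hair-rich libraries (1.23, limma adjusted p = 0.236). The Col4a2 calls were lost in 5 of 10 fits without a single library after acute and 6 of 10 after chronic UVB. The acute rises without the hair-rich libraries were 1.53 for Col4a1 (limma adjusted p = 0.015) and 1.24 for Col4a2 (0.0241), and the chronic difference of Col4a2 was 0.90 (0.337). Without UVB, NZM skin had less Col4a1 than WT skin, by 1.82 ± 0.48 (SE; limma adjusted p = 0.00754, and 0.0516 without WT library 45). In WT skin 6 members were higher and 4 lower after chronic than after acute UVB. In each direction that is a smaller share than over all genes (19.6% and 17.7%). All 6 type IV chains were among the members called. Col4a1 and Col4a2 were lower by 1.18 and 1.22 and Col4a3, Col4a4, Col4a5 and Col4a6 higher by 0.97 to 2.22. The same contrast called 0 higher and 2 lower members in NZM (3.79% and 3.76%) and 0 higher and 2 lower in iNZM skin (3.81% and 4.45%). In the fit without the hair-rich libraries it called 0 in NZM and 1 higher and 4 lower in iNZM skin.

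Col4a5 (chrX:141475385-141689234, plus strand) and Col4a6 (chrX:141165403-141474076, minus strand) encode the chains of a type IV network of the epidermal basement membrane. Without UVB Col4a6 was 572, 464, 429, 698 and 531 in NZM, 285, 347, 342 and 334 in iNZM and 42.9, 43.5, 30.2 and 19.1 in WT skin. The 3 strains did not overlap. NZM exceeded WT by 4.0 ± 0.45 (SE; limma adjusted p = 1.4e-08), a call that held in every fit tried.

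Over all regimens the 14 WT libraries had 0 to 43.5 reads of Col4a6, the 15 NZM libraries 68.4 to 698 and the 14 iNZM libraries 42 to 347, and within each regimen every WT library lay under every NZM and iNZM library. Col4a5 differed less between unexposed strains, at 357 to 413 in WT and 462 to 869 in NZM skin (0.73, not called). The per-kb ratio of Col4a5 to Col4a6 ran from 1.05 to 4.13 in the NZM and iNZM libraries and from 5.49 to 66.1 in the WT libraries with any Col4a6 read.

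Acute UVB lowered Col4a6 in each strain. It was 76.7, 78.6, 68.4, 88.4 and 145 in NZM, 223, 120, 264, 79.1 and 42 in iNZM and 5.84, 3.47, 4.85, 6.11 and 0 in WT skin. Every acute library lay under every unexposed library of its strain. The falls were 2.58 ± 0.42 (SE), 1.45 ± 0.45 and 2.99 ± 0.45 (limma adjusted p = 2.61e-05, 0.0155 and 4.15e-06), and the iNZM call was lost without acute library 10 (0.0579) and in a fit on the compared groups alone (0.0752). Without the hair-rich libraries the falls were 2.76 in NZM (limma adjusted p = 2.07e-05) and 2.13 in iNZM skin (0.00207).

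After chronic UVB Col4a6 fell by 1.51 in NZM (limma adjusted p = 0.0128, and 0.0484 without the hair-rich libraries) and 1.60 in WT skin (0.00533). Col4a5 fell after acute UVB by 1.25 ± 0.37 (SE) in NZM (adjusted p = 0.0122, limma, and 0.000792 without the hair-rich libraries) and by 2.2 ± 0.39 in WT skin (4.99e-05), where it went from 357, 370, 375 and 413 to 31.6, 85.0, 142, 97.8 and 96.0. After chronic UVB it was back at 719, 403, 212, 379 and 351 in WT skin, 2.22 ± 0.37 above acute (limma adjusted p = 1.11e-05). Col4a4 followed in WT skin, with a fall of 1.52 after acute UVB (adjusted p = 0.000924, limma).

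**Figure D4:**
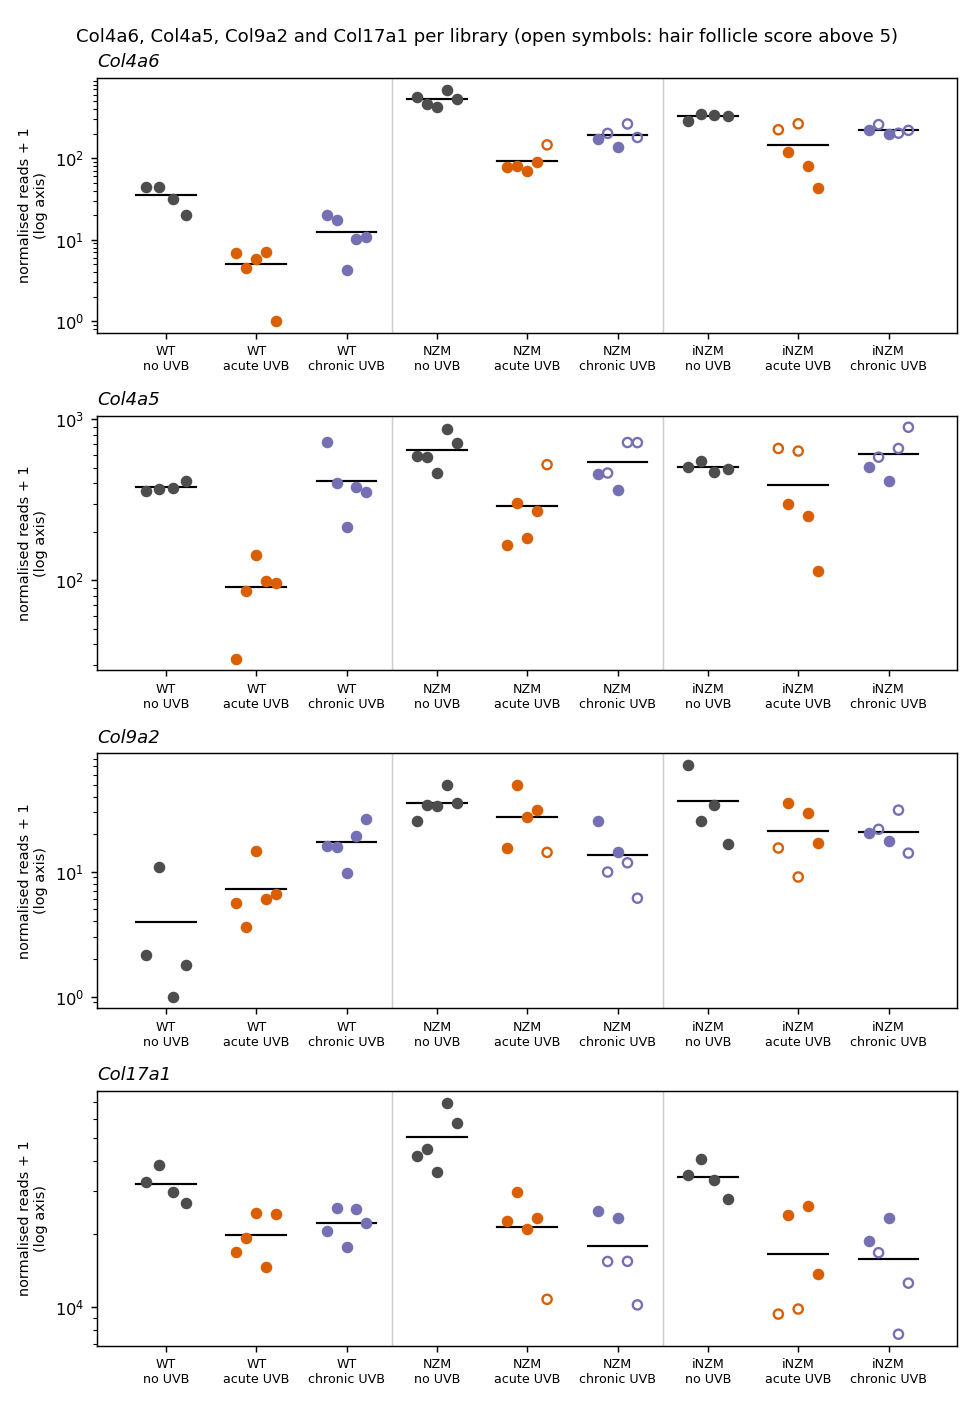
Normalised reads + 1 of Col4a6, Col4a5, Col9a2 and Col17a1 (vertical axes, log scale) in the 43 libraries by strain and regimen, with a point per library, a bar at the group mean and open symbols for the 9 libraries of high hair follicle score. Col4a6 is at most 43.5 reads in every WT library, and Col17a1 is highest without UVB in each strain.

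Col17a1 (chr19:47646344-47692094, minus strand) encodes the transmembrane collagen of hemidesmosomes, by which basal keratinocytes hold on to the basement membrane. In NZM skin it was 42109, 45045, 36101, 69771 and 57564 without UVB, 22549, 29700, 21041, 23328 and 10744 after acute UVB and 24881, 15396, 23335, 15422 and 10189 after chronic UVB. In iNZM skin it was 35042, 40878, 33571 and 27855 without UVB, 9335, 23903, 9795, 26142 and 13607 after acute UVB and 18708, 16744, 23360, 7707 and 12533 after chronic UVB. No exposed NZM or iNZM library reached the unexposed range of its strain.

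The falls of Col17a1 were 1.26 ± 0.29 (SE; limma adjusted p = 0.00141) and 1.52 ± 0.29 (0.000353) in NZM and 1.17 ± 0.30 (0.00406) and 1.2 ± 0.30 (0.00436) in iNZM skin, acute then chronic. In WT skin, at 26939 to 38678 without UVB, 14557 to 24329 after acute and 17654 to 25582 after chronic UVB, the differences of -0.71 and -0.53 were not called, although the exposed libraries lay under the unexposed ones. The difference between the NZM and WT responses was not called (acute -0.55 ± 0.42, adjusted p = 0.692, and chronic -1.0 ± 0.42, 0.133, by limma).

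The hair-rich libraries had 7707 to 16744 Col17a1 reads and the other 21 exposed libraries 13607 to 29700. Without the former the falls were 1.03 and 1.02 in NZM, 0.74 and 0.70 in iNZM and 0.71 and 0.53 in WT skin, with limma adjusted p of 0.000268, 0.014, 0.0186, 0.051, 0.0072 and 0.0326. Without those libraries 5 of 10 basal keratinocyte markers fell (2 rose) after acute and 6 after chronic UVB in NZM skin, and 2 (2 rose) and 2 in iNZM skin. With them, 5 fell after acute and 9 after chronic UVB in NZM skin (10.7% and 9.78% of all genes). In iNZM skin 4 fell (1 rose) after acute and 5 after chronic UVB (12.4% and 15.7% of all genes fell). In WT skin 3 markers fell (1 rose) and 1 fell (2 rose), acute then chronic (11.3% and 16.8%). Their summed reads were 446487 to 763121 in unexposed NZM, 232658 to 356014 in NZM acute and 231678 to 404079 in NZM chronic skin, and none was at 0 in any library. Their part in the Col17a1 result was not tested.

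Col7a1 (chr9:108953586-108984875, plus strand), the chain of anchoring fibrils, fell in NZM skin after acute UVB by 1.13 ± 0.36 (SE; limma adjusted p = 0.0215). Its values were 2018, 2155, 1980, 3887 and 2833 without UVB and 1102, 1699, 828, 1337 and 906 after acute UVB, with no overlap. The call was lost without NZM acute library 3 or unexposed library 34, at an adjusted p of up to 0.0683, and was 0.00378 without the hair-rich libraries. In WT skin Col7a1 was 1112, 1242, 1125, 787 and 831 after acute and 3879, 2616, 1626, 3121 and 2757 after chronic UVB, 1.42 ± 0.36 higher after the latter (limma adjusted p = 0.00212).

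Col23a1 (chr11:51289920-51583918, plus strand), another transmembrane chain, was lower after chronic UVB in each strain, by 1.66 ± 0.30 (SE) in NZM, 1.22 ± 0.32 in iNZM and 1.45 ± 0.32 in WT skin (limma adjusted p = 0.000237, 0.00564 and 0.000629). In NZM skin it was 938, 923, 868, 1735 and 1268 without UVB and 467, 237, 320, 571 and 259 after chronic UVB. None of the 3 strains had a chronic library within its unexposed range, and the 3 calls held in every fit tried. After acute UVB it fell in WT skin, by 1.47 (limma adjusted p = 0.000679), and was -0.44 in NZM and -0.11 in iNZM skin, not called. Chronic lay under acute by 1.22 in NZM (limma adjusted p = 0.00927, and 0.0516 without the hair-rich libraries) and by 1.11 in iNZM skin (0.0176, lost without library 9 or 57).

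The multiplexins lie in the basement membrane zone. Col18a1 (chr10:77052178-77166548, minus strand), whose end piece is released as endostatin, was 2468, 2622, 2199 and 2160 in unexposed iNZM skin and 5308, 3540, 5247, 5503 and 4591 after acute UVB, and in WT skin 1544, 1800, 3544 and 2751 without and 4765, 3938, 5029, 4714 and 4150 with acute UVB. Neither strain's groups overlapped. The rises were 1.02 ± 0.28 (SE) and 0.98 ± 0.28 (limma adjusted p = 0.00611 and 0.00841, the former 0.00619 without the hair-rich libraries and the latter 0.0536 without unexposed WT library 41). Col15a1, at 346 to 1005 in unexposed NZM skin and 997 to 1691 after chronic UVB, rose there by 1.22 (limma adjusted p = 0.0311, and 0.25 without the hair-rich libraries).

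Col8a1 (chr16:57624258-57754737, minus strand), a short-chain network collagen found in vessel walls, rose after acute UVB in each strain. It was 196, 236, 220, 111 and 129 without UVB and 1193, 457, 1280, 248 and 428 after acute UVB in NZM skin. In WT skin it was 360, 276, 269 and 328 and then 1184, 824, 841, 1459 and 421. Neither pair of groups overlapped, whereas in iNZM skin acute library 48 at 239 lay within the unexposed range of 161 to 277. The rises were 1.79 ± 0.42 (SE) in NZM, 1.35 ± 0.45 in iNZM and 1.51 ± 0.45 in WT (limma adjusted p = 0.00187, 0.0234 and 0.0117), and the iNZM call was lost without acute library 10, which was at 1959, without unexposed library 39, or in a fit on the compared groups alone (0.111). The rises without the hair-rich libraries were 1.91 in NZM (limma adjusted p = 0.00174) and 1.6 in iNZM skin (0.0227).

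After chronic UVB Col8a1 was 201 to 479 in NZM, 187 to 712 in iNZM and 244 to 409 in WT skin and was called in none of them. In WT skin it lay 1.33 ± 0.42 (SE) under acute (limma adjusted p = 0.0119). The difference between the NZM and WT responses of Col8a1 was not called (NZM minus WT 0.28 ± 0.61 for acute UVB, adjusted p = 0.903 by limma). Col8a2, the other chain of its class, was called in no comparison.

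The other genes of the collagen pathway came from fixed lists. After acute UVB 10.6% of all genes rose and 10.7% fell in NZM, 12.8% and 12.4% in iNZM, and 10.4% and 11.3% in WT skin. After chronic UVB the shares were 9.20% and 9.78%, 13.1% and 15.7%, and 18.4% and 16.8%. List counts near these shares, such as those of the receptors after acute UVB, are not read as responses of a list. Shares for the fit without the hair-rich libraries are not given here. Of 31 genes for collagen-processing enzymes and chaperones tested, 8 rose and 4 fell in NZM after acute UVB, 1 and 6 in iNZM, and 0 and 3 in WT skin. After chronic UVB 6 rose and 4 fell in NZM, while 16 fell in iNZM and 17 in WT skin and none rose. Without the hair-rich libraries acute UVB raised 11 and lowered 4 in NZM and raised 1 and lowered 3 in iNZM skin, and chronic UVB raised none and lowered 1 in NZM and 8 in iNZM skin. Adamts14, which trims the N-terminal propeptide of procollagen, fell after acute UVB in each strain, by 2.22 in NZM, 1.52 in iNZM and 2.16 in WT (limma adjusted p = 1.63e-06, 0.000535 and 3.46e-06). P4ha1, a subunit of the prolyl hydroxylase that stabilises the helix, fell after chronic UVB by 0.92, 1.26 and 1.10 (0.00082, 4.51e-05 and 5.51e-05). Both genes kept these calls without the hair-rich libraries.

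Among 15 genes of collagen breakdown, 4 rose and none fell in NZM after acute UVB, 3 rose and 1 fell in iNZM and 4 rose and 1 fell in WT skin. After chronic UVB 3 rose and 1 fell in NZM, none rose and 7 fell in iNZM, and 1 rose and 4 fell in WT skin. When the hair-rich libraries were left out, 5 rose and none fell in each of NZM and iNZM after acute UVB, and after chronic UVB 1 rose and none fell in NZM and 1 rose and 3 fell in iNZM skin. Pepd, which splits proline dipeptides released from collagen, fell after acute UVB in WT skin by 1.09 (limma adjusted p = 0.000165) and in iNZM skin by 0.65 (0.0195). After acute UVB the mean of Mmp10, a stromelysin, went from 0.733 to 29.0 normalised reads in NZM skin. It went from 1.23 to 27.1 in iNZM and from 0.199 to 64.9 in WT skin. With unexposed means this low, Mmp10 passed the filter on low values through exposed libraries alone. Timp1, an inhibitor of these proteases, rose after acute UVB by 5.39, 3.57 and 5.31 (limma adjusted p = 2.6e-06, 0.0011 and 4.41e-06). After chronic UVB Mmp9, a gelatinase, fell by 3.62 in NZM (limma adjusted p = 0.00647, and 0.157 without the hair-rich libraries), 5.09 in iNZM (0.000382) and 3.36 in WT skin (0.00701).

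Of 9 collagen receptors, 1 rose and 1 fell after acute UVB in NZM, none rose and 1 fell in each of iNZM and WT, and after chronic UVB 3 rose and 2 fell in NZM, 1 rose and 5 fell in iNZM and 2 fell in WT skin. With the hair-rich libraries left out, 4 rose and 1 fell in NZM and 1 rose in iNZM after acute UVB, and 1 rose and 2 fell in NZM and 2 fell in iNZM after chronic UVB. Ddr1, a receptor kinase of epithelial cells, fell by 0.83 in NZM (limma adjusted p = 0.000148) and 0.62 in iNZM skin (0.00407) after chronic UVB. Of 18 genes of transforming growth factor beta signalling, 2 rose and 2 fell after acute UVB in NZM, 3 and 2 in iNZM and 1 and 0 in WT, and after chronic UVB 1 rose and 4 fell in NZM, 5 fell in iNZM, and 1 rose and 7 fell in WT skin. Without the hair-rich libraries 4 rose and 3 fell in NZM and 4 rose and 1 fell in iNZM after acute UVB, and 3 fell in each after chronic UVB. Tgfb2, a ligand, fell after acute UVB by 1.14 in NZM (limma adjusted p = 0.0031) and 1.38 in iNZM (0.000727), and Smad3, a transducer, fell by 1.24 in WT skin after chronic UVB (1.39e-06).

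As a background, 7.47% of all genes were higher and 7.49% lower in unexposed NZM than in WT skin. The shares after UVB are given above. Fibroblast and matrix genes other than collagens were counted beside the chains. Of 20, 9 were lower and 1 higher in unexposed NZM than in WT skin, 3 rose and 1 fell after chronic UVB in NZM, 15 fell in iNZM, and 10 fell and 1 rose in WT skin. None rose or fell in NZM skin in the fit without the hair-rich libraries, and 12 fell in iNZM skin, both after chronic UVB. Dpt, dermatopontin of the dermal matrix, fell by 2.57 in iNZM (limma adjusted p = 0.00281) and 2.29 in WT skin (0.0038) after chronic UVB. The summed reads of the 20 were 18687 to 33423 in iNZM chronic and 52051 to 66773 in unexposed iNZM skin, 36209 to 50942 in unexposed NZM and 42642 to 125023 in unexposed WT skin, and none was at 0 in any library. Of 15 adipocyte markers 11 were lower in unexposed NZM than in WT skin, with sums of 131254 to 367624 and 300613 to 582556. In the fit without the hair-rich libraries chronic UVB lowered 12 and raised 1 in WT and lowered 4 and raised 2 in iNZM skin. Acute UVB lowered 5 in WT skin in that fit. All 10 macrophage markers fell in iNZM after chronic UVB, from sums of 8613 to 23273 to sums of 584 to 4901, and 7 fell without the hair-rich libraries. In that fit 7 also fell in WT skin after chronic UVB, and 8 rose in NZM skin after acute UVB. None was called there in NZM chronic, iNZM acute or WT acute skin. Of 11 endothelial markers the same fit raised 5 in NZM skin after acute UVB. It lowered 3 and raised 1 in WT skin after chronic UVB. No share of all genes stands beside the counts of that fit. The part of such cell content in the collagen results was not tested.

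Col1a1 and Col3a1 moved together through most libraries but not in a fixed ratio. Over the 34 libraries of low hair follicle score the Col1a1 to Col3a1 ratio of reads per kb lay between 0.23 and 0.76. In the 9 hair-rich libraries it lay between 0.448 and 1.99, with a median of 1.09 beside 0.469. These libraries were set apart by their scores and are a description of samples, not groups of the study.

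**Figure D5:**
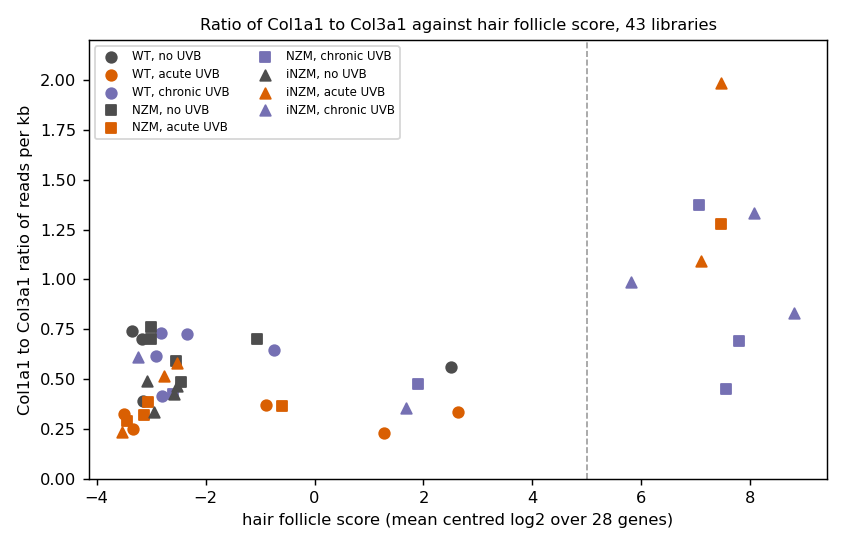
Ratio of Col1a1 to Col3a1 in normalised reads per kb (vertical axis, linear) against the hair follicle score (horizontal axis, mean centred log2 level of 28 genes) in the 43 libraries, with shape for strain, colour for regimen and a dashed line at a score of 5. Points left of the line end at a ratio of 0.76 and points right of it reach 1.99.

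The remaining members moved little or were low. Col13a1 and Col25a1 of the transmembrane chains and Col20a1, Col26a1 and Col28a1 were called in none of the 15 comparisons, with highest values of 167, 57.9, 152, 40.9 and 163 normalised reads. Col24a1, a low fibrillar chain, and Col11a2 were lower in unexposed NZM than in WT skin, by 2.64 (limma adjusted p = 0.00906) and 1.89 (0.00856). Col24a1 rose in NZM after chronic UVB, by 1.99 (limma adjusted p = 0.0345, and 0.415 without the hair-rich libraries), from a mean of 2.58 to 13.2 reads. These members fall outside the rule for named genes and are given so that every member is accounted for.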

How the data were processed

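RNA from back skin was sequenced after poly-A selection with paired-end reads, per the labels' protocols. The deposited table holds a signal per gene, and its values are whole read counts divided by 1 size factor per library. The submitters' processing notes name STAR, HTSeq, DESeq2 and the mm10 build. The gene annotation and the strand setting are not given in the sources used here. Multiplied by a size factor read from the spacing of the low values (0.6735 to 1.7503), 100.0% of the values came out whole within 0.01 reads, so whole reads were recovered. They summed to between 18493566 and 37756660 per library, and these totals set the precision of low genes.

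The deposited values were tested as log2(value + 1) with limma 3.58.1 in R 4.3.3 (empirical Bayes with a mean trend). A single model with 1 mean per group covered the 43 libraries in 9 groups. The filter kept 19170 of 23256 genes, those that reached a value of 10 in 4 or more libraries. P-values were two-sided and adjusted by the Benjamini-Hochberg method over all genes tested, in each of 15 comparisons. The 3 strains and 3 UVB regimens came from the sample titles. No table columns were left out.

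Other settings tried were a pseudocount of 8, no filter, TMM scaling, the compared groups alone, a covariate for the 13 libraries numbered 46 or above, the hair follicle score as a covariate, edgeR 4.0.16 and DESeq2 1.42.0 on recovered reads, and leaving out each library. Leaving out the 9 libraries with a hair follicle score above 5 was chosen after seeing the data. The hair follicle score is the mean over 28 genes of log2(value + 1), centred per gene.

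Members with values in every library were named by a rule. It took up to 6 called members per direction and UVB comparison (up to 4 in the other comparisons), whose higher group mean reached 100, by size of the difference, and 15 chains by name. The members were taken by symbol, and this set of genes and the lists were proposed with earlier results of these data known. Gene coordinates and transcript lengths came from GENCODE release M21, and promoters from RefSeq build GRCm38.p6. The code was tested on simulated data. Figures used matplotlib 3.10.9 and tables pandas 2.3.3 under Python 3.11.15.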

Additional observations from a re-analysis of the deposited data

Results flagged for a closer look

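In 19 of 225 groups of libraries over 25 named genes, 1 library stood apart from the others by Dixon's test at the 95% level, which chance passes in about 1 of 20 groups. Library 28 was the high one in WT chronic skin for 9 of these genes. Its normalised reads were 30689 for Col1a1 (next highest 12169), 31447 for Col1a2 (10697), 69236 for Col3a1 (17621), 4805 for Col4a2 (2510) and 2846 for Col5a1 (1063). They were 4921 for Col5a2 (1831), 1580 for Col5a3 (644), 4649 for Col6a2 (2285) and 375 for Col6a6 (93.8). These are the chains of dermal fibrils and filaments together with 1 basement membrane chain.

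In iNZM acute skin library 10 stood apart for Col8a1 at 1959 (next 535) and Col6a6 at 362 (next 130). In NZM acute skin library 5, of high hair follicle score, was high for Col16a1 at 2633 (next 1484) and Col4a6 at 145 (next 88.4). Library 1 of the same group was high for Col5a3 at 802 (next 609) and library 46 low for Col1a2 at 6655 (next 11895). Col12a1 was 2055 in iNZM chronic library 25 (next 1093). Col4a4 was 291 in iNZM chronic library 57 (next 130) and 208 in unexposed NZM library 34 (next 115). Col9a3 was low in unexposed iNZM library 37, at 39.2 (next 79.3).

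The chronic UVB response differed between NZM and WT skin for 13 chains by limma. It was higher in NZM, in log2, by 3.26 for Col1a2, 3.24 for Col5a3, 3.12 for Col3a1, 2.97 for both Col1a1 and Col14a1, 2.77 for Col5a1, 2.76 for Col6a3, 2.5 for Col5a2, 2.46 for Col4a1, 2.12 for Col15a1 and 1.99 for Col4a2. It was lower in NZM for Col9a2 (-4.22) and Col9a3 (-2.58). The limma adjusted p lay between 0.000518 for Col9a2 and 0.0458 for Col3a1. Without the 9 hair-rich libraries the calls of Col5a3 (adjusted p = 0.0181 by limma), Col9a2 (0.0106) and Col9a3 (0.0141) were kept among these 13, and the other 10 lay between 0.0603 and 0.121.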

How the results depend on the processing

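No paired analysis was possible because the library numbers in the titles are not shared between groups. No called difference of a named collagen gene changed sign under any setting run, and TMM scaling shifted the median of all genes most in chronic against acute WT skin, by -0.0317 (log2). On the recovered reads edgeR called 14, 7 and 10 members after acute UVB in NZM, iNZM and WT skin and 15, 9 and 16 after chronic UVB. Counts of called members moved by over 1.5 times as follows, and the cause was not tested. Shares of all genes called under these settings are not given here. For acute UVB in iNZM a fit on the compared groups alone called 5 in place of 8. For chronic UVB in NZM (17 called) the hair follicle covariate gave 10 and leaving out the 9 hair-rich libraries 6, and in iNZM (12) the covariate gave 5.

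For chronic against acute UVB in NZM (2) these settings gave 1 and 0. In iNZM (2) a pseudocount of 8, no filter and the covariate for later library numbers each gave 1, the compared groups alone 0 and leaving out the hair-rich libraries 5. For unexposed iNZM against NZM (0) the hair covariate and DESeq2 each gave 1, and for the acute response of NZM against WT (0) DESeq2 gave 1. For the chronic response of NZM against WT (13) leaving out the hair-rich libraries gave 4. For that of iNZM against NZM (0) the compared groups alone and the hair covariate each gave 11 and DESeq2 9.

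Leaving out 1 library gave 8 to 15 calls for acute UVB in NZM (14; 8 without unexposed library 34), 6 to 9 in iNZM (8) and 9 to 12 in WT (11). For chronic UVB it gave 7 to 20 in NZM (17; 11 without 17, 7 without 55, 8 without 56, 9 without 31, and 10 without 34 or 35), 8 to 15 in iNZM (12) and 9 to 19 in WT (14; 9 without 27, 44 or 45). Chronic against acute UVB gave 1 to 3 in NZM (2; 1 without acute library 1, 3, 46 or 47 or chronic library 17, 55 or 56), 0 to 4 in iNZM (2; 0 without 9 or 57, 1 without 10, 22, 24 or 49, and 4 without 6 or 25) and 6 to 13 in WT (10; 6 without acute library 52). NZM against WT without UVB gave 10 to 19 (19; 10 without WT library 45), and iNZM against NZM 0 in each such fit, as did both acute response contrasts. The chronic response contrast gave 3 to 16 for NZM against WT (13; 3 without unexposed WT 45, 6 without 44, 55 or WT chronic 29, 7 without 56, and 8 without 27, 59, 34 or 35) and 0 to 11 for iNZM against NZM (0; 7 without NZM chronic 17, 8 without iNZM chronic 23 and 11 without iNZM chronic 25). At these depths a gene of a few reads, such as Col2a1 without UVB, has counting error close to its level.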
